A study of Homo sapiens with 6 samples.

Results

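Histone genes were followed across plating density in MCF10A, a human mammary epithelial cell line that does not form tumours. A gene belonged to the set if its symbol in the array annotation began with H1-, H2AC, H2AZ, H2AX, H2BC, H3-, H3C, H4C or H4-, which gave 55 of the 19775 genes measured by a probe set with 1 symbol. They were sorted into 44 genes of replication-dependent type, 5 variants, and 2 linker genes counted apart as germline linkers (H1-7 and H1-8). The remaining 4 are pseudogenes or antisense RNAs that match by their letters only (H1-9P, H4C10P, H2AC5P and H1-10-AS1). The 44 were not divided by tissue of expression, and they include H1-6, H2BC1 and H3-4. Another 20 matching symbols occurred only on probe sets shared by several genes. H2BC12L, counted with the replication-dependent genes for its symbol, lies on chromosome 21, away from the histone clusters.

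Cells were plated at 50K, 100K, 200K, 400K, 600K or 800K per 35 mm dish, cultured for 24 h and taken for total RNA, with 1 Affymetrix HG-U133 Plus 2 array per density. No density was repeated, and the labels do not say whether an array stands for 1 dish. The same DMEM/F12 medium served all dishes. It held insulin at 10 μg/ml, hydrocortisone at 0.5 μg/ml, gentamicin at 100 μg/ml, cholera toxin at 100 ng/ml and EGF at 20 ng/ml, with horse serum at 5%. The labels name no other treatment and no genotype. The deposited values are ratios of each probe set to its own value on the 50K array, so 50K is 0 on the log2 scale for each gene and no level can be read. The labelled cell type could therefore not be checked by the level of its markers. Of 4 basal epithelial markers measured, KRT14, CDH3 and KRT5 rose with density, and of 6 fibroblast and 4 leukocyte markers DCN and CD14 rose. DCN lost its call without the 50K, 100K, 200K, 600K or 800K array (adjusted p up to 0.228). The median ratio of an array, over its non-control probe sets, was 1.013 to 1.036 above 50K.

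Core histones H2A, H2B, H3 and H4 form the nucleosome, and linker histone H1 binds the DNA between nucleosomes. Replication-dependent histone genes lie in clusters, are transcribed mainly in S phase, and give mRNAs that end in a stem-loop bound by SLBP instead of a poly(A) tail. The variant histones H2A.Z and H3.3 come from genes outside the clusters, with polyadenylated mRNAs, and are made throughout the cell cycle. H2AX and H1-10 were counted with the variants, and the 3′ ends of their mRNAs were not examined. Some cluster genes also give polyadenylated transcripts, which are known from differentiated cells.

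The trend with density was the slope of the log2 ratio per doubling of the cells plated, from limma's fit over all genes, with its standard error from the scatter of 6 arrays around the line. A gene was called at an adjusted p under 0.05 (Benjamini-Hochberg over all 19775 genes). Among the 44 replication-dependent genes 4 rose and none fell, a share of 9.09% rising, where 8.93% of all genes rose and 12.4% fell. The rising share at this adjusted threshold is close to that of all genes. At an unadjusted p under 0.05, 8 of the 44 had a positive and 1 a negative slope. Of all 19775 genes 2847 had a positive and 3622 a negative slope at that unadjusted p. The median slope of the 44 was 0.00036, against 0.00448 over all genes, and 33 of them (75.0%) moved by less than 0.5 log2 units between their lowest and highest array, against 74.3% of all genes. Of the 5 variants 1 fell and none rose. Over all 55 genes 9.09% were called, against 21.3% of all genes in either direction.

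**Figure D1:**
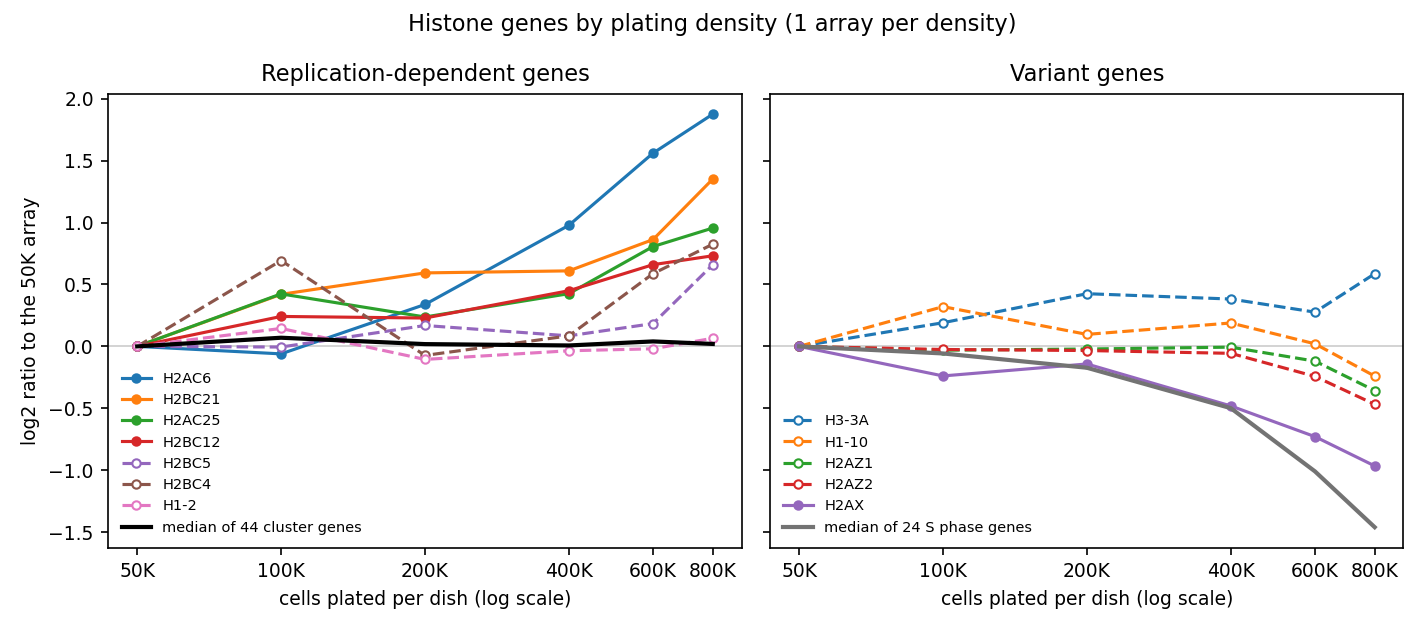
Log2 ratio to the 50K array (vertical axis) by cells plated (horizontal, log scale), with 1 array per point. Left, the replication-dependent genes that rose (filled, solid) and H2BC5, H2BC4 and H1-2 (open, dashed), with the median of the 44 genes in black. Right, the variants, with H2AX filled, and in grey the median of 24 S phase genes, which was −1.46 at 800K.

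H2AC6, H2BC21, H2AC25 and H2BC12 were the replication-dependent genes that rose. H2AC6, which encodes a core histone H2A, had log2 ratios of −0.06, 0.34, 0.98, 1.56 and 1.87 from 100K to 800K. The 50K and 100K arrays were its lowest, and each step above 100K was an increase, to 3.67-fold of the 50K ratio at 800K. Its slope was 0.50 ± 0.07 (SE, 6 arrays, limma adjusted p = 0.00704). H2AC6 kept its call with each array left out.

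H2BC21, a core H2B gene of a cluster on chromosome 1, had log2 ratios of 0.42, 0.59, 0.61, 0.86 and 1.35 from 100K to 800K. It stood above 50K on every other array, was level between 200K and 400K, and was 2.55-fold higher at 800K (slope 0.27 ± 0.05, limma adjusted p = 0.0119). Without the 50K array the call was lost (adjusted p = 0.0846). H2BC12, an H2B gene of the large cluster on chromosome 6, had 0.24, 0.23, 0.45, 0.66 and 0.73, nearly level between 100K and 200K and higher at each density above (slope 0.17 ± 0.02, adjusted p = 0.00502). It was 1.66-fold higher at 800K and kept its call with each array left out.

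H2AC25, an H2A gene of the other chromosome 1 cluster, had a mean of 0.42, 0.24, 0.43, 0.81 and 0.96 over its probe sets, so that 600K and 800K were its highest arrays (slope 0.20 ± 0.04, limma adjusted p = 0.0256). The mean hides a disagreement. The probe set 221582_at, with no suffix of possible cross-hybridisation, reached 1.79 at 800K (slope 0.42 ± 0.07), while 231681_x_at was at 0.12 there (slope −0.02 ± 0.04). H2AC25 lost its call without the 50K array (adjusted p = 0.151), without 600K (0.0826) and without 800K (0.102).

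The suffixes _s_at and _x_at mark probe sets whose probes may also bind other transcripts, and they limit these results. H2AC6 and H2BC21 are each read by a single _s_at probe set, while H2BC12 is read by a plain _at probe set. Of the 70 single-symbol probe sets of the 55 genes, 12 were _s_at and 10 were _x_at, and 13 genes had no other kind. Each probe set was also tested alone, over all 54613 non-control probe sets, of which 13.9% were called, 5.94% rising and 7.96% falling. Of the 47 _at probe sets of the histone genes 2 rose and none fell, where 5.09% of all _at probe sets rose and 6.3% fell (11.4% called). Of the 12 _s_at probe sets 2 rose and 2 fell, where 8.6% of all rose and 14.4% fell (23.0% called). Of the 10 _x_at probe sets none rose and 1 fell, where 7.63% of all rose and 6.61% fell (14.2% called). The 3 that fell all belong to H2AX. Each of these 7 calls was lost with at least 1 array left out, at this level of single probe sets.

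Of the 6 cluster genes known to give polyadenylated transcripts, H2AC6, H2BC21 and H2BC12 rose, where 8.93% of all genes rose. The median slope of the 6 was 0.15 and that of the other 38 replication-dependent genes −0.00045, of which 1, H2AC25, rose. This list was drawn up from general knowledge with earlier results of these data known. H2BC5, an H2B gene of the list, had −0.01, 0.17, 0.09, 0.18 and 0.66, nearly level up to 600K and highest at 800K. It did not pass (slope 0.12 ± 0.05, limma adjusted p = 0.135), and both of its probe sets are _x_at. H2BC5 passed when the cell number itself replaced the log2 scale (limma adjusted p = 0.0401). H2BC4, also H2B, had 0.69, −0.07, 0.08, 0.59 and 0.82, high at 100K and low at 200K and 400K (slope 0.12 ± 0.09, adjusted p = 0.483). H1-2, a linker histone, had 0.14, −0.11, −0.04, −0.02 and 0.07 and moved by 0.25 in all (slope −0.01 ± 0.03, adjusted p = 0.898).

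The promoters of the 4 rising genes and of H2AX, the variant that fell, are shown because these genes carry the changes of the set. The sequences are the 250 bases before the annotated start, 5′ to 3′ on the gene's strand, from RefSeq on GRCh38.p14. For H2BC12 the table gives 2 starts, and that of the earlier row is used. Capitals mark matches, on either strand, to the octamer ATTTGCAT, to CCAAT, to the TATA box TATAAA, and to TTTGGCGC, TTTCCCGC, TTTCGCGC or TTTGCCGC, forms of the site of E2F factors, which act at S phase entry. In H2BC12 a CCAAT match adjoins an E2F match, and TATA matches on both strands overlap far from the start.
H2AC6 (chr6:26123922-26124171, strand +): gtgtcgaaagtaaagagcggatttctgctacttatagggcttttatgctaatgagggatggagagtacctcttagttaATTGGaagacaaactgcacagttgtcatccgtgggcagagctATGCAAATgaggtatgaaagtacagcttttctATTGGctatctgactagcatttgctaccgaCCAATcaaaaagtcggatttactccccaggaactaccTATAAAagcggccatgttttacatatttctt
H2BC21 (chr1:149886683-149886932, strand -): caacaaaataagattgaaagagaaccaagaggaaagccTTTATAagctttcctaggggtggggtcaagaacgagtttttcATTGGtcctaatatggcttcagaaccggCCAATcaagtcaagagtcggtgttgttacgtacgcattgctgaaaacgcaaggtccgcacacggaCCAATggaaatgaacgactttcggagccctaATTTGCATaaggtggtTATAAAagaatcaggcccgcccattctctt
H2BC12 (chr6:27146859-27147108, strand -): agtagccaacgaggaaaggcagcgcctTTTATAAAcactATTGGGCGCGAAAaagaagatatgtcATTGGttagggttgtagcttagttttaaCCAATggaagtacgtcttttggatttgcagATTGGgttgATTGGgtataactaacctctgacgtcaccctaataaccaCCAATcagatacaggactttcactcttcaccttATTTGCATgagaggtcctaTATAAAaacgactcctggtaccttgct
H2AC25 (chr1:228457874-228458123, strand -): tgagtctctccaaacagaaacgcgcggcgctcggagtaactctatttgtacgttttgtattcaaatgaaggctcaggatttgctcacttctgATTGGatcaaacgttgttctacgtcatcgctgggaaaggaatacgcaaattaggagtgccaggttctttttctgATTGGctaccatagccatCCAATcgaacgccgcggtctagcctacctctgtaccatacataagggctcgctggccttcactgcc
H2AX (chr11:119095466-119095715, strand -): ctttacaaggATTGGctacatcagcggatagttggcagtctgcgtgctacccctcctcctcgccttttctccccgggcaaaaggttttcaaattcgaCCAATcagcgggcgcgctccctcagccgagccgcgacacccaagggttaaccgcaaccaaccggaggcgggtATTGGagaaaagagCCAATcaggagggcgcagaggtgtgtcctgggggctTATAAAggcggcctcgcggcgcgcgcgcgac

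The octamer, a motif long known from H2B promoters and bound by the factor OCT1, was in the windows of H2AC6, H2BC21 and H2BC12 and not in that of H2AC25 or H2AX. In H2BC21 and H2BC12 it began 46 bases before the start, just upstream of the TATA box, whereas in H2AC6 it lay in reverse orientation and began 130 bases before the start. Windows were available for 48 of the 55 genes. The octamer occurred in 10 of 13 H2B and 6 of 8 H2A replication-dependent genes and in none of 6 H1, 7 H3 or 7 H4 genes, against 2.03% of 27305 genes with a window. Of the 16 replication-dependent genes with it 3 rose, and their median slope was 0.00339, against 1 of 25 without it and a median of −0.00062. Of all genes 8.93% rose. The 25 include the 6 H1, 7 H3 and 7 H4 genes, and all 4 that rose are H2A or H2B genes. These counts therefore do not separate the octamer from the histone family. CCAAT occurred in 36 of 41 replication-dependent windows (37.0% of all genes), TATAAA in 28 (3563 of the 27305 genes), and a form of the E2F site in 10 (3.4%). These are matches of letters and no evidence of binding.

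Many H2A and H2B genes are transcribed in opposite directions from a common promoter region. The starts of H2AC6 and H2BC4 lie 246 bases apart on opposite strands, so the printed H2AC6 window also holds the region before H2BC4. The values of the pair differed in course: H2AC6 was at −0.06 at 100K, where H2BC4 was at 0.69, and at 0.98 at 400K, where H2BC4 was at 0.08. H2BC21 lies 236 bases from H2AC20 and H2AC25 lies 230 bases from H2BC26, also on opposite strands. Neither neighbour had a probe set of its own here.

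The other 40 replication-dependent genes did not pass the test, and 18 of them moved by less than 0.2 log2 units over all arrays. Ratios do not tell whether such a gene was steady or below the background of the array. The 6 linker genes (H1-1 to H1-6) had slopes between −0.05 for H1-3 and −0.01 for H1-2, and the smallest adjusted p among them was 0.183. Slopes were below 0 for 8191 of the 19775 genes. The sign was not kept under every alternative: the fitted change over the range was 0.04 for H1-2 without 100K and 0.0035 when fitted on the cell number itself, and 0.0004 for H1-1 without 50K. A probe set of H1-6 also had a slope above 0. Among H3 genes, H3C2 had 0.19, −0.13, −0.11, −0.24 and −0.25, above 50K at 100K and below it from 200K on (slope −0.09 ± 0.03, limma adjusted p = 0.0815, an _s_at probe set). It had the most negative slope of the class and passed without the 50K array (adjusted p = 0.0494). H3C7 was at 0.40 at 400K and −0.28 at 800K. H3C1, H3C3, H3C6, H3C8, H3C11 and the testis-type H3-4 had slopes between −0.02 and 0.02.

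Among H4 genes, H4C4 had 0.39, 0.29, 0.29, 0.33 and 0.72, above 50K throughout and highest at 800K, without passing (slope 0.11 ± 0.04, limma adjusted p = 0.136). H4C8 reached 0.39 at 800K (adjusted p = 0.149), where its _at probe set was at 0.76 and its _s_at probe set at 0.01. It passed in 1 of 6 fits with an array left out (adjusted p = 0.049). H4C1, H4C5, H4C7, H4C9, H4C11 and H4C13 had slopes between −0.05 and 0.04. Of the H2A genes that did not pass, H2AC8 had the highest slope (0.07) and H2AC17 the lowest (−0.06), with H2AC4, H2AC14, H2AC15 and H2AC16 between them. Of the H2B genes, H2BC14 was lowest (−0.08 ± 0.04), and H2BC12L reached 0.31 at 800K. H2BC1, H2BC3, H2BC6, H2BC9, H2BC11, H2BC13, H2BC15 and H2BC17 had slopes between −0.03 and 0.04. H1-6 and H2AC25 were the replication-dependent genes whose probe sets differed in sign. As gene means, H1-7, H1-8 and 3 of the 4 pseudogenes or antisense RNAs moved by at most 0.21. The 3 probe sets of H1-7 differed in sign, and 236876_at alone moved by 0.57. The pseudogene H1-9P stood at 0.96 on the 400K array and at 0.07 on the 600K array (limma adjusted p = 0.767).

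**Figure D2:**
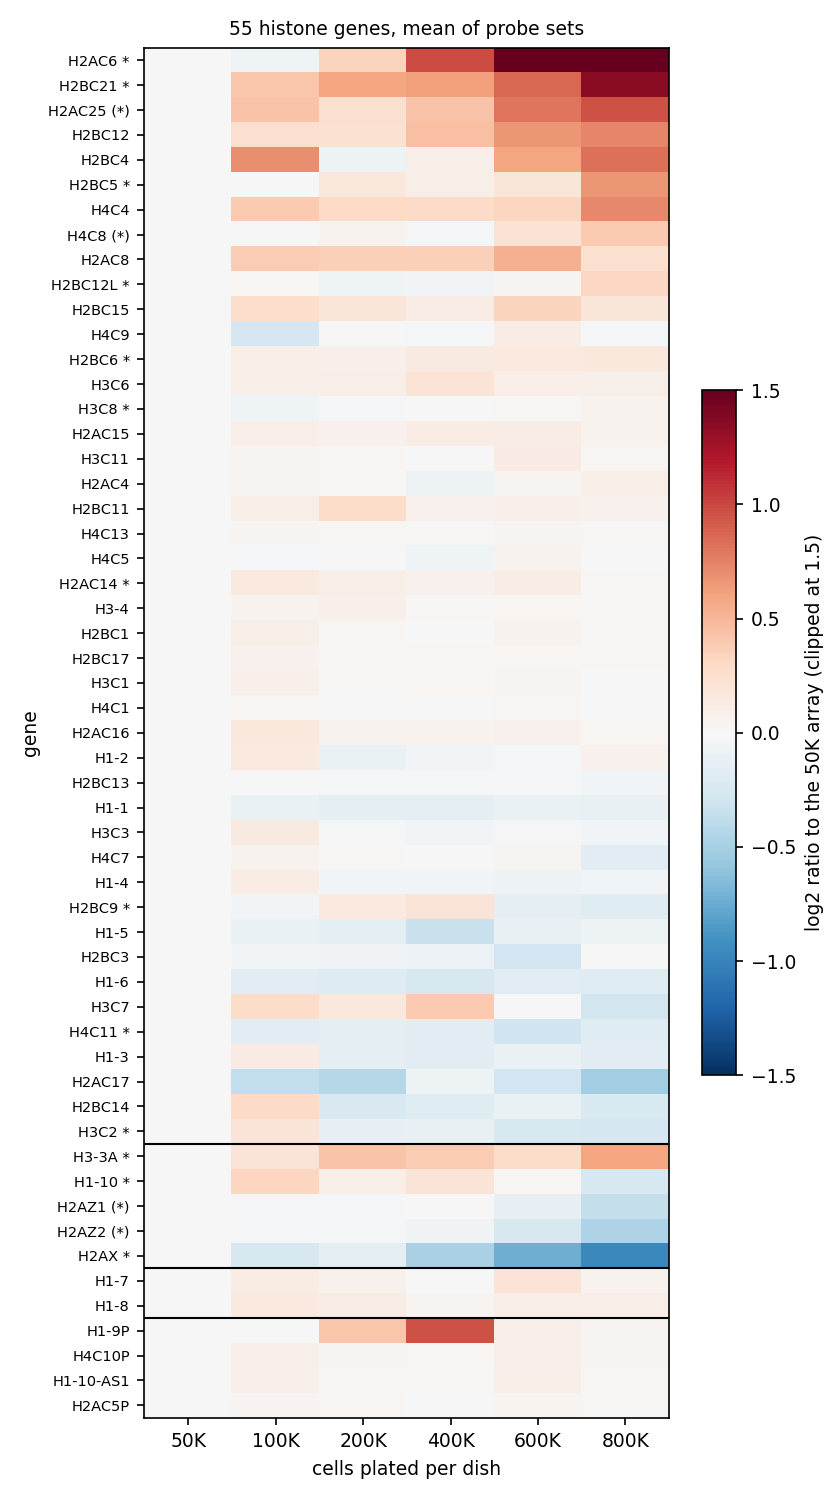
Log2 ratio to the 50K array (colour, clipped at 1.5) for the 55 genes (rows, by class and then slope) at 6 densities (columns). Black lines separate, from the top, replication-dependent genes, variants, germline linkers, and pseudogenes or antisense RNAs. An asterisk marks genes read only by _s_at or _x_at probe sets, and an asterisk in brackets those read partly by them. Most rows are pale, with H2AC6 and H2BC21 the darkest red and H2AX the darkest blue.

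H2AX, the H2A variant that is phosphorylated around DNA breaks, was the variant that fell. Its log2 ratios were −0.24, −0.14, −0.48, −0.73 and −0.97 from 100K to 800K, below 50K on every array and lowest at 800K, with 0.512 of the 50K ratio there (slope −0.22 ± 0.04, limma adjusted p = 0.013). The adjusted p was 0.0503 without the 50K array. All 4 of its probe sets had slopes below 0, at −0.31, −0.28 and −0.20 for the _s_at probe sets and −0.08 for the _x_at probe set. H2AX has no probe set of another kind. The log2 ratios given for H2AX are means over these probe sets, which differed in course. At 100K, 205436_s_at was at 0.06 and 213344_s_at at −0.60. The _x_at probe set was lowest at 400K (−0.325) and stood at −0.319 at 800K.

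H2A.Z, a variant found at promoters, is encoded by H2AZ1 and H2AZ2. H2AZ2 had a mean of −0.03, −0.03, −0.06, −0.24 and −0.47 over its probe sets, level up to 400K and lower at 600K and 800K. The slope of −0.09 ± 0.03 did not pass (limma adjusted p = 0.0907), although all 4 probe sets had slopes below 0. It passed when the cell number itself (adjusted p = 0.0123) or the rank of the density (0.0339) replaced the log2 scale. The probe sets of H2AZ2 differed at 100K, where 202487_s_at was at 0.15 and 212205_at at −0.23. H2AZ1 had −0.03, −0.02, −0.01, −0.12 and −0.36, likewise lowest at 800K (slope −0.06 ± 0.03, adjusted p = 0.209). H1-10, a linker variant, had 0.32, 0.10, 0.19, 0.02 and −0.24, highest at 100K and below 50K only at 800K (slope −0.06 ± 0.05, adjusted p = 0.498).

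H3-3A, a gene for the H3.3 variant that is placed into chromatin outside replication, had 0.19, 0.43, 0.38, 0.28 and 0.59 on its single-symbol _s_at probe set. It stood above 50K throughout but did not pass (slope 0.11 ± 0.03, limma adjusted p = 0.0615), with 0.049 without the 200K and 0.0309 without the 600K array. The second H3.3 gene, H3-3B, is read only by 8 probe sets shared with H3-3A, which went in both directions. Of the 4 that also list MIR4738, 2 fell (slopes −0.10 and −0.09), 1 rose (0.11) and 1 did not pass. The 4 that also list the pseudogene H3P6 had slopes between 0.05 and 0.06, and none passed. The direction of H3.3 mRNA as a whole is therefore not settled by these probe sets. Of the 2 that fell, both calls were lost without the 800K array (adjusted p = 0.0557 and 0.0766), and that of the one that rose when 100K, 400K, 600K or 800K was left out (adjusted p at most 0.124).

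Of all 28 shared probe sets 3 fell, 1 rose and 24 did not pass. Where 7.96% of all probe sets fell and 5.94% rose, these counts are near the background. The steepest was 205967_at, which lists 14 H4 genes. It had −0.11, −0.51, −0.84, −1.49 and −1.71, falling at every density (slope −0.44 ± 0.06, limma adjusted p = 0.00969 over all probe sets), and it passed with each array left out. The other 4 probe sets for the same 14 genes had slopes between −0.07 and 0.03 and moved by at most 0.50. The probe set 206110_at, which lists 10 H3 genes, had 0.14, −0.02, 0.85, 0.79 and 0.77, higher on the 3 densest arrays (slope 0.23 ± 0.06, adjusted p = 0.0552). Which genes these values come from cannot be told from the annotation.

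**Figure D3:**
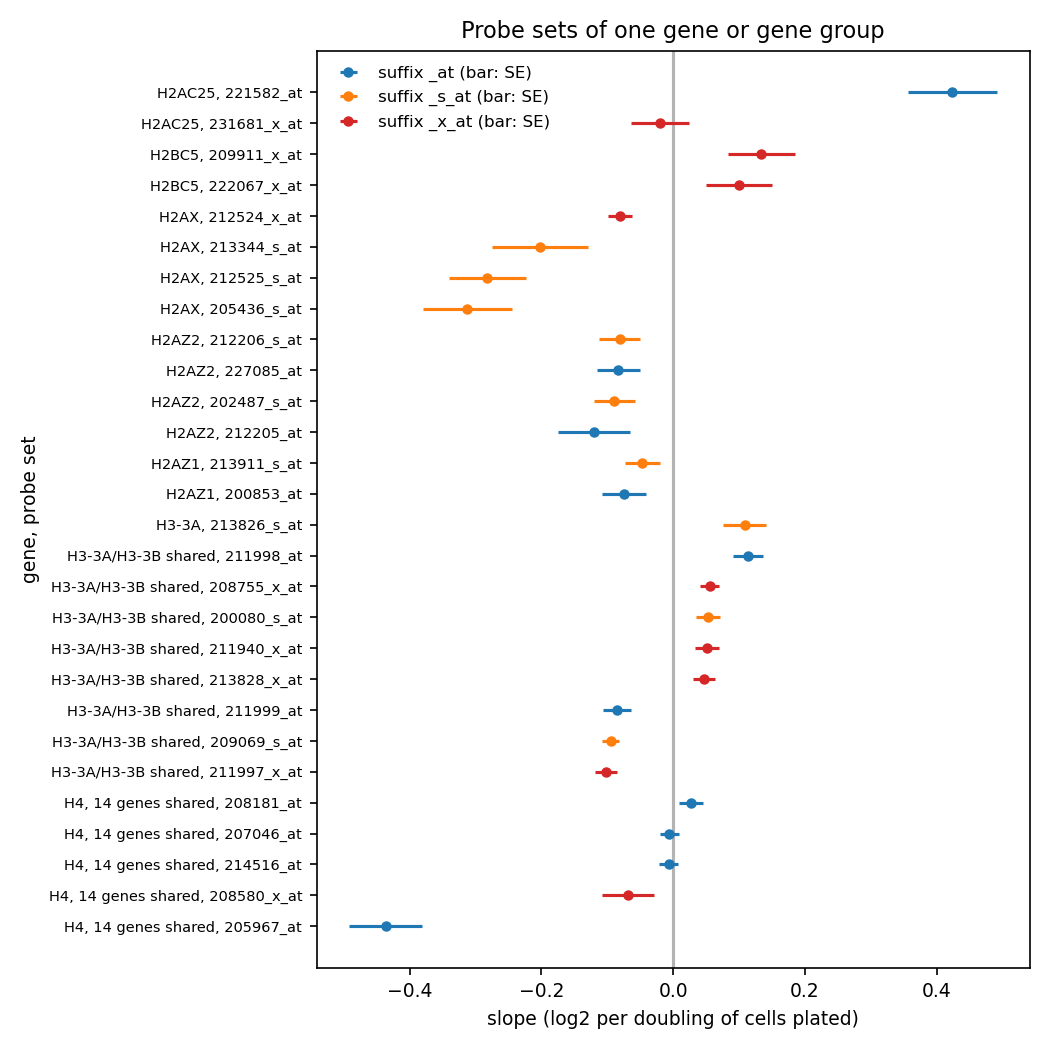
Slope per doubling of the cells plated (horizontal, log2 units, bars are SE) for single probe sets, grouped by gene or by the genes that share them, and coloured by suffix. The H2AX and H2AZ2 probe sets lie left of 0, those of H2AC25 and the shared H3.3 probe sets disagree, and among the H4 probe sets 205967_at stands apart at −0.44.

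Genes that serve histone supply are set beside the histone genes. Of 19 measured factors of histone gene transcription and mRNA 3′ processing, 11 fell, 1 rose and 7 did not pass, a share of 57.9% falling and 5.26% rising, where 12.4% of all genes fell and 8.93% rose. SLBP, the stem-loop binding protein, had −0.06, −0.16, −0.56, −0.93 and −0.99, lower at each density (slope −0.27 ± 0.04, limma adjusted p = 0.00742). LSM10, a subunit of the U7 particle that cleaves histone pre-mRNA, had a slope of −0.25 ± 0.04, the exonuclease ERI1 −0.19 ± 0.04 and the cleavage factor CSTF2 −0.18 ± 0.04. SLBP and LSM10 passed with each array left out. ERI1 lost its call without 50K, 100K, 600K or 800K (adjusted p up to 0.0846) and CSTF2 when 100K, 600K or 800K was left out (at most 0.0653). The member that rose was MIF4GD, a partner of SLBP in translation (0.14 ± 0.03, lost without 50K, adjusted p = 0.13). NPAT, the coactivator of histone clusters, had −0.06 ± 0.02 and did not pass (adjusted p = 0.101). The number that fell was between 4 and 9 with 1 array left out.

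Of 22 histone chaperones and assembly factors 8 fell, 1 rose and 13 did not pass, a share of 36.4% falling and 4.55% rising, against 12.4% and 8.93% of all genes. ASF1B, a chaperone of new H3 and H4, had a slope of −0.45 ± 0.11, HJURP, the chaperone of centromeric CENPA, −0.40 ± 0.07, the assembly factor subunit CHAF1B −0.33 ± 0.09, and UBN1, a subunit of the HIRA complex, −0.31 ± 0.03. CABIN1, which also belongs to the HIRA complex, rose (0.10 ± 0.02). With 1 array left out between 4 and 10 fell. ASF1B, CHAF1A and CHAF1B each lost the call without 100K, 600K or 800K (adjusted p up to 0.152, CHAF1B), and CABIN1 when 50K, 600K or 800K was left out (at most 0.166). Of 5 other variant histones CENPA fell (−0.24 ± 0.04, adjusted p = 0.0655 without 800K) and H2AJ rose (0.12 ± 0.02, 0.0609 without 50K and 0.0566 without 800K), while 3 did not pass. Of all genes 12.4% fell and 8.93% rose, and nothing is read from 1 call in each direction among 5 genes.

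Of 24 S phase genes, a list chosen with earlier results of these arrays known, 20 fell and none rose, where 12.4% of all genes fell. At an unadjusted p under 0.05 all 24 had negative slopes, as had 3622 of the 19775 genes. The median log2 ratio of the 44 replication-dependent genes was 0.07, 0.02, 0.01, 0.04 and 0.02 from 100K to 800K, against −0.06, −0.17, −0.50, −1.01 and −1.46 for the S phase genes. The steepest were CCNE2 (−0.68 ± 0.11), CDC25A (−0.63 ± 0.09), RRM2 (−0.61 ± 0.11) and MCM10 (−0.59 ± 0.11). The count was 8 without the 100K or 600K array and 10 without 800K, and MCM10 was among those lost there (adjusted p up to 0.0615). Fewer cells in S phase and less RNA of these genes per cell cannot be told apart in bulk RNA. The difference between the classes was not tested. Ratios do not show whether the flat histone genes were above background. Whether mRNA without a poly(A) tail was read is not known from the labels. The shared probe set 205967_at, which lists 14 H4 genes, was at −1.71 at 800K. The other 4 probe sets for the same genes moved by at most 0.50.

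**Figure D4:**
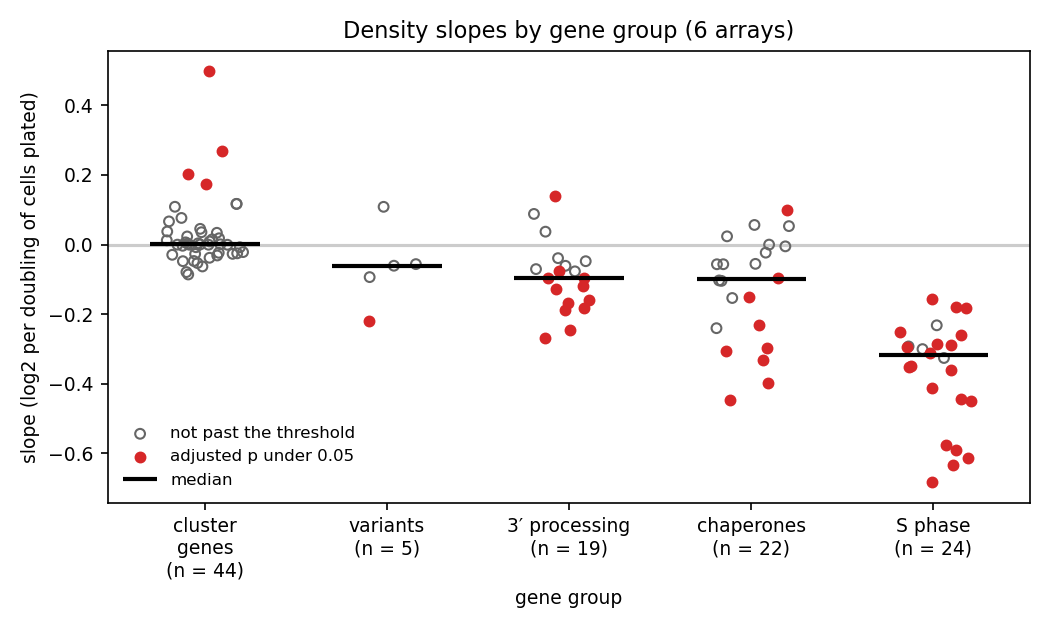
Slope per doubling of the cells plated (vertical, log2 units) of each gene in 5 groups, filled red where the adjusted p was under 0.05, with a black bar at the group median. The replication-dependent (cluster) genes centre on 0 with 4 red points above it, and the S phase genes all lie below 0 with a median of −0.32.

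No gene passed the limma test for curvature, the quadratic term in log2 of the cells plated, and so none of the 55. At an unadjusted p under 0.05 there were 5 of the 55 and 2496 of all genes. The genes most like the median course of the 44 replication-dependent genes over 6 arrays were PSG4, STKLD1, KANK3, FXYD2 and PLGLB2, with Pearson's r between 0.997 and 0.998. Each of these moved by at most 0.12 log2 units, and r is given as a description over arrays that share 1 baseline array.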

How the data were processed

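MCF10A RNA was measured on 6 Affymetrix HG-U133 Plus 2 arrays, 1 per density, from 200 ng of total RNA, per the labels' protocols. The priming of the labelling reaction, which bears on whether mRNA without a poly(A) tail is read, was not stated in the labels. RMA is named, with no version, in the submitters' processing notes. Each deposited value is a linear ratio of a probe set's signal to that on the 50K array, whose 54675 values equal 1 within 1e-06. That division is not described in the sources used here. Signal over background is unknown, and precision is limited by having 6 arrays.

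Of 54613 non-control probe sets, 41091 had 1 symbol in the platform annotation, which gave 19775 genes, each the mean log2 ratio of its probe sets. RefSeq identifiers changed 0 symbols. Slopes on log2 of the cells plated (4 residual degrees of freedom) and quadratic terms (3) were estimated by limma (version 3.58.1, R 4.3.3), two-sided. With no replicates, residuals mix dish variation, technical noise and departures from a line. Procedures were tested on simulated data.

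The members and gene lists were chosen with earlier results of these data known. Of the 8 variants listed, 5 were measured alone and the rest are not reported by gene here. Named by rule were all variants, all called members, members with a plain probe set, members with probe sets of both signs, the 6 cluster genes with polyadenylated transcripts, and up to 4 genes per list. NPAT, CHAF1A, H3C2, H3C7 and the shared probe sets described singly were named after their values were seen. Promoter windows and motifs were chosen after the data were seen. Alternatives were other probe sets, centring, density scales, grouping, robust variance and leaving out each array.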

Additional observations from a re-analysis of the deposited data

How the results depend on the processing

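Directions of the 5 called histone genes were the same under every alternative that measured them. Leaving out _x_at and _s_at probe sets removes H2AC6, H2BC21 and H2AX from measurement. It left 2664 genes called in all, 2 replication-dependent genes rising, 0 variants falling, 1 of the genes with polyadenylated transcripts rising, 6 processing factors falling and 0 rising, 4 chaperones falling, and 0 other variants in either direction. H2AC25 then had a fitted change of 1.70 over the range, against 0.81. The marker DCN had −0.0084 in that setting, a reversed sign. With the 3 highest against the 3 lowest densities, 2259 genes and 2491 probe sets were called, with 2 replication-dependent genes rising (H2AC25 and H2BC21 were lost, adjusted p = 0.107 and 0.156), 0 processing factors and 0 chaperones rising, 3 chaperones falling, 0 other variants rising and 12 S phase genes falling. Of the single-symbol histone probe sets 1 then rose and 0 fell, and of the shared ones 2 rose and 0 fell. On the scale of the cell number, 6 replication-dependent genes rose, against 4 in the main fit. On that scale 2 variants fell, 0 chaperones rose and 15 fell, 2 other variants fell and 2 shared probe sets rose. By rank, 2 variants and 2 other variants fell. With arrays centred, 2 other variants fell and 2 shared probe sets rose. With 1 probe set per gene, 0 processing factors rose and 7 fell, 5 chaperones fell and 0 other variants rose.

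With 1 array left out, 2388 to 3909 genes were called. Rising replication-dependent genes numbered 2 to 5 and falling ones 0 to 1, and variants 0 to 1 in each direction. Processing factors numbered 0 to 1 rising and 4 to 9 falling, chaperones 0 to 1 and 4 to 10, other variants 0 to 1 and 0 to 2, and 8 to 22 S phase genes fell. The median fitted change of the variants was −0.51 to −0.0845, against −0.24 with all arrays. Called probe sets numbered 2801 to 6770, against 7595 with all arrays. Among single-symbol histone probe sets 1 to 4 rose and 0 to 3 fell, and among shared ones 0 to 2 rose and 1 to 3 fell. The call of 215071_s_at, for H2AC6, was lost over all probe sets without 600K or 800K (adjusted p = 0.0545 and 0.0589), and that of 209806_at, for H2BC12, without 50K or 800K (0.0508 and 0.0505). No paired analysis was possible because each density has 1 array. The causes of these changes were not tested.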
